A study of Danio rerio with 6 samples.

Results

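The mitochondrial carrier family comprises the membrane proteins that pass nucleotides, phosphate, amino acids, keto acids, carnitine esters, cofactors and protons across the inner mitochondrial membrane. Its members were taken as every gene symbol beginning with *slc25a*, *ucp* or *mtch* followed by a digit, which selected 55 of 30713 named genes. Their transcripts were measured by RNA-Seq of poly-A–selected RNA from whole homogenized zebrafish larvae, and embryonic alcohol exposure (EAE) was compared with control. EAE larvae were WT fish of the AB strain held in water with 1% EtOH, starting at 12 hpf and ending at 5 dpf, and control larvae were WT fish of the same strain held at 0% EtOH over that period. Both groups then stayed without EtOH, with food, and were collected at 7 dpf. Each group had 3 pools of 30 larvae, so differences between single larvae and between tissues are averaged within a pool. The labels describe siblings of mixed sizes divided among the tubes of a group. The authors' paper speaks of 3 independent groups of larvae, and of RNA from several clutches combined. Whether the pools are independent is thus not settled. P-values measure the spread between such pools, which may be partly technical.

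Most substrates of the mitochondrial matrix cannot cross the inner membrane unaided. A carrier binds its substrate on one side, changes shape and releases it on the other, usually in exchange for a counter-substrate. ADP/ATP and phosphate carriers serve oxidative phosphorylation, aspartate/glutamate and oxoglutarate/malate carriers form the malate-aspartate shuttle that brings NADH electrons into the matrix, and the carnitine carrier delivers acyl groups for β-oxidation. The malate-aspartate shuttle is also known to limit how fast liver cells reoxidize the cytosolic NADH that EtOH oxidation yields. Carriers are made in the cytosol and enter the inner membrane through the TIM22 route, while a few relatives (Mtch proteins, Slc25a46) sit in the outer membrane.

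Between 17264955 and 23638705 reads were assigned to named genes in each pool. The 55 carrier genes together took 0.803% to 0.872% of the reads in EAE pools and 0.828% to 0.869% in control pools. A filter on low counts left 54 carriers for testing; *slc25a24l* was left out, with 9, 4 and 5 reads in EAE pools and 9, 4 and 7 in control pools. Levels are given as CPM, the reads of a gene scaled to a common library size after TMM adjustment, and a gene was called higher or lower at an adjusted p under 0.05 in edgeR's quasi-likelihood test over 21617 genes. Whole-larva markers moved as well. Over all tested genes, 7.22% were called higher and 6.95% lower. Of 20 neuronal markers 12 were lower and none higher, and their summed level was 3486 to 3890 CPM in EAE pools, against 4285 to 4358 CPM in control pools. Of 17 liver markers 9 were higher and 1 lower, with sums of 5114 to 5755 CPM in EAE pools and 4750 to 5194 CPM in control pools. Of 7 heart muscle markers 3 were higher, with sums of 204.2 to 224.1 CPM in EAE pools and 185.4 to 194.5 CPM in control pools. This heart list had 0 calls without EAE pool 1 or control pool 2, 1 without control pool 3, 2 without EAE pool 3 or control pool 1 and by DESeq2, and 4 without EAE pool 2. When single pools were left out, the neuronal list had 5 (without EAE pool 1) to 14 lower calls and the liver list 3 (without control pool 1) to 10 higher calls. Among markers of skeletal muscle 1 of 20 was higher, of intestine 2 of 12 were lower, of exocrine pancreas 1 of 16 was lower and of red blood cells 0 of 10 tested were called by edgeR, DESeq2 or limma-voom (1 higher and 1 lower at an unadjusted p under 0.05, with *hbae1* at 0 in every pool). The intestine list had 1 lower call in each fit that left out a pool other than EAE pool 1. The pancreas list had none without EAE pool 2 or control pool 2 and by DESeq2, and 2 without EAE pool 3. DESeq2 and limma-voom each also called 1 muscle marker lower, and without control pool 3 the muscle list had 2 higher calls. The summed levels of these 4 lists overlapped between the groups, as did those of the liver list. The part of these marker shifts in the carrier results was not tested. In whole larvae, fewer cells of a type and less RNA per cell cannot be told apart.

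Few carriers differed between the groups. In EAE larvae *slc25a12* was higher, and *slc25a25a*, *slc25a36a* and *slc25a43* were lower. One carrier of 54 (1.85%) was thus called higher, beside 7.22% of all tested genes, and 3 (5.56%) were called lower, beside 6.95% of all tested genes. In either direction that is 7.41% of carriers, beside 14.2% of all tested genes. The share of carriers called was thus below the background, but this gap rests on few genes and was not tested. At an unadjusted p under 0.05, 5 of 54 carriers were higher and 6 of 54 lower. Of all 21617 tested genes, 3129 (14.5%) were higher and 3098 (14.3%) lower. The median log2 fold change of the carriers was −0.02, beside 0.00077 for all genes, with 25 carriers above 0 and 29 below. Over all 6 pools, 9 carriers had every EAE pool above every control pool and 9 had every EAE pool below, which is 16.7% each beside 16.0% each for all genes. Together, 33.3% of carriers did not overlap between the groups, beside 32.0% of all genes, a share near the background. Of the 50 carriers that were not called, 47 had a 95% interval of the fold change lying wholly inside 1.5-fold in either direction, a limit set after the values were seen. The exceptions were *slc25a13*, *slc25a37* and *slc25a51a*, all with few reads.

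**Figure D1:**
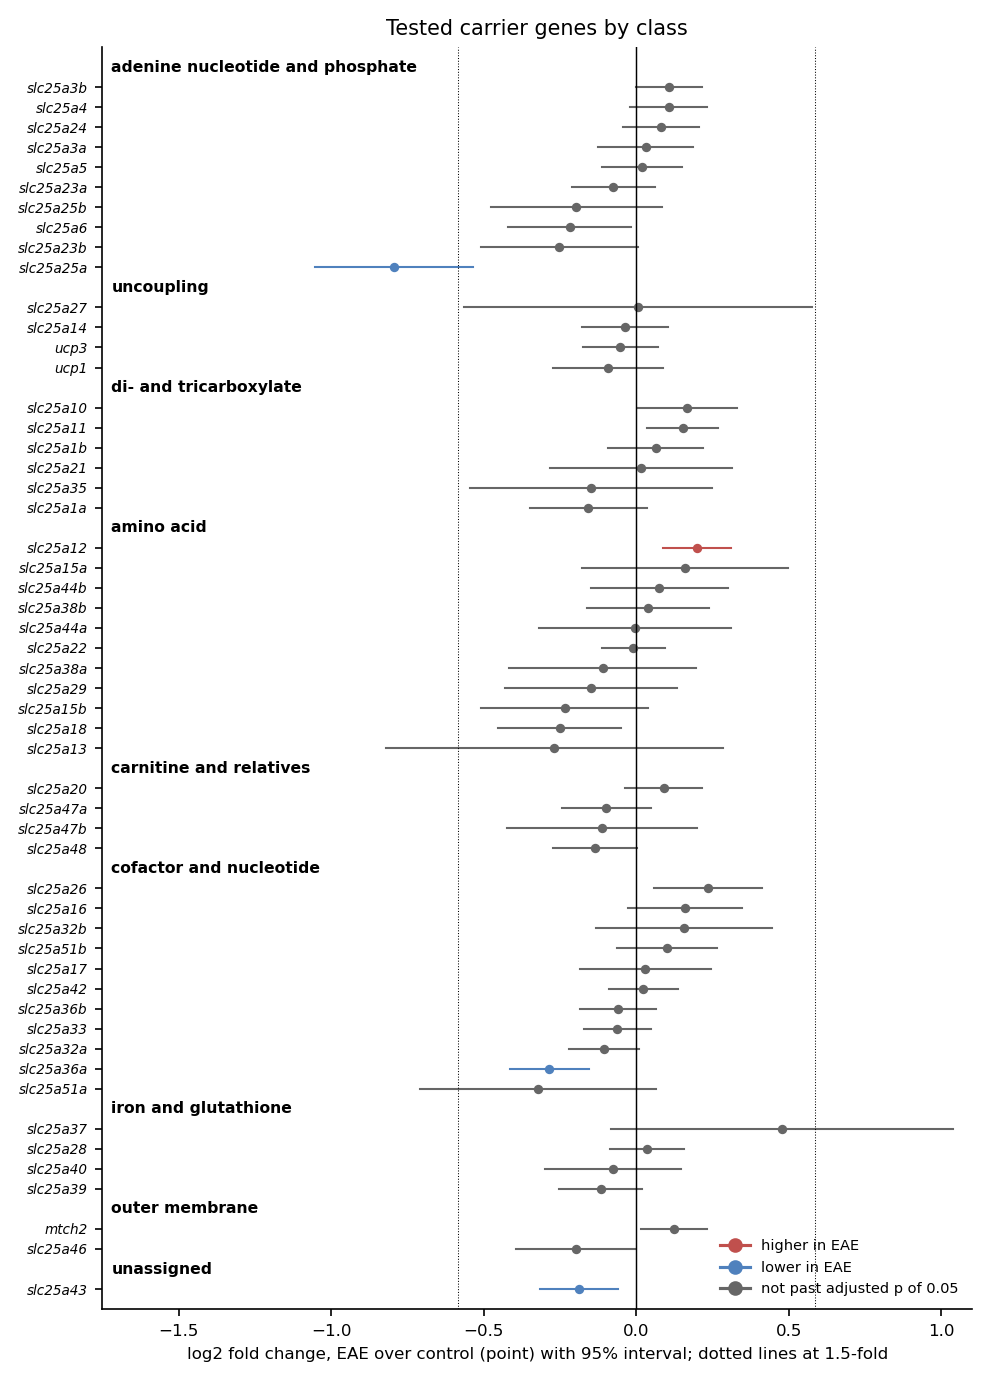
Fitted log2 fold change (EAE over control, horizontal axis) of the tested carrier genes reported here, grouped by substrate class, with points for estimates, bars for 95% intervals and dotted lines at 1.5-fold. Most intervals cross 0 and stay inside the dotted lines. The point furthest left is *slc25a25a* at −0.79, and the widest interval to the right belongs to *slc25a37* at 0.48.

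Adenine nucleotide and phosphate carriers comprised 11 genes, 10 of them tested, with 1 lower and none higher. *slc25a25a* encodes an ATP-Mg/phosphate carrier, a calcium-regulated exchanger that sets the size of the adenine nucleotide pool in the matrix. It had 15.1, 13.4 and 15.4 CPM in EAE pools, against 18.9, 30.6 and 27.0 CPM in control pools. The groups did not overlap, and the control pools were spread more widely than the EAE pools, with control pool 1 nearest to the EAE values. Means were 14.6 ± 1.07 CPM in EAE larvae and 25.5 ± 5.98 CPM in control larvae (SD, n = 3 each). The transcript fell by 42.3% (log2 fold change −0.79 ± 0.12 SE, 95% interval of the fold 0.482 to 0.690, edgeR adjusted p = 0.000347). Leaving out single pools moved the log2 fold change between −0.97, without control pool 1, and −0.65, without control pool 2, and the call remained in every alternative that gave the gene a value.

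Its paralogue *slc25a25b* had 3.87, 4.45 and 4.48 CPM in EAE pools and 4.79, 5.21 and 4.66 CPM in control pools. Here too every EAE pool lay below every control pool, but the log2 fold change of −0.20 ± 0.13 (SE) did not pass the test (edgeR adjusted p = 0.355). The ratio of *slc25a25a* to *slc25a25b* reads within a pool does not depend on scaling. It was 3.90, 3.01 and 3.44 in EAE pools, against 3.95, 5.87 and 5.78 in control pools. The groups did not overlap, although EAE pool 1 and control pool 1 were close, and the difference of the mean log2 ratio was −0.58 (exact permutation test, two-sided, p = 0.1, the smallest 3 pools against 3 can give). With the reads of both paralogues added, the log2 fold change was −0.68 (edgeR adjusted p = 0.000402). In the RefSeq annotation of another assembly, GRCz12tu, *slc25a25a* overlaps *acaa2*, which encodes a thiolase of β-oxidation and was called higher in EAE larvae (log2 fold change 0.30, edgeR adjusted p = 0.0299). Whether counting used strand is not given in the sources used here, so reads of these overlapping genes may not be fully separated. In that annotation 11 of the 55 carriers overlap another protein-coding gene.

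The other ATP-Mg/phosphate carriers were not called. *slc25a24* had 33.0 to 35.2 CPM in EAE pools and 31.8 to 32.4 CPM in control pools, *slc25a23a* 24.4 to 26.2 CPM in EAE pools and 26.3 to 28.0 CPM in control pools, and *slc25a23b* 5.64 to 6.36 CPM in EAE pools and 6.26 to 8.28 CPM in control pools. Of these, *slc25a24* had all EAE pools above and *slc25a23a* all EAE pools below the control pools, both with narrow gaps.

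The ADP/ATP carriers exchange matrix ATP for cytosolic ADP. *slc25a5* alone took 49.0% to 50.4% of all carrier reads in EAE pools and 48.7% to 49.96% in control pools. It had 4362, 3983 and 4315 CPM in EAE pools and 4077, 4266 and 4162 CPM in control pools. These pools overlapped, and the log2 fold change was 0.02 ± 0.06 (SE), with a 95% interval of the fold from 0.925 to 1.11. *slc25a4* had 439.8, 422.5 and 418.4 CPM in EAE pools and 380.2, 372.0 and 438.0 CPM in control pools. Control pool 3 was as high as the EAE pools while the other control pools were lower, and the gene was not called (log2 fold change 0.11, edgeR adjusted p = 0.266). *slc25a6* had 10.2, 11.9 and 10.5 CPM in EAE pools and 11.8, 14.1 and 12.0 CPM in control pools, with a log2 fold change of −0.22 ± 0.10 (SE, edgeR adjusted p = 0.139). Among reads of these 3 genes, *slc25a4* took 9.14%, 9.56% and 8.82% in EAE pools and 8.51%, 7.996% and 9.50% in control pools, so the mixture overlapped between groups. The 3 genes encode closely similar proteins, and how reads matching more than 1 gene were counted is not given in the sources used here.

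The phosphate carrier supplies the phosphate that ATP synthase joins to ADP. Its gene *slc25a3b* had 695, 671 and 697 CPM in EAE pools and 625, 646 and 643 CPM in control pools. All EAE pools lay above all control pools, but the log2 fold change of 0.11 ± 0.05 (SE) was small and not called (edgeR adjusted p = 0.176). *slc25a3a* had 26.0 to 32.1 CPM in EAE pools and 28.0 to 29.6 CPM in control pools.

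**Figure D2:**
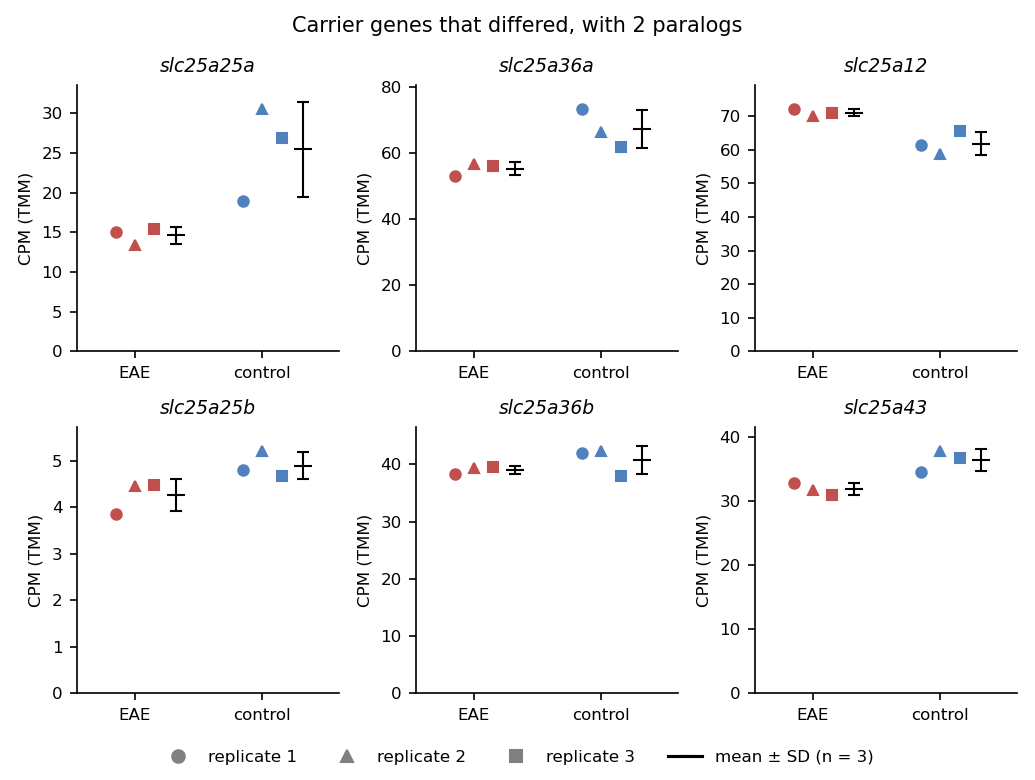
CPM (vertical axes, starting at 0) of the 4 carrier genes called in the test and of the paralogues *slc25a25b* and *slc25a36b*, with a point for each of 3 EAE pools (left) and 3 control pools (right) and a bar for the group mean ± SD. EAE pools of *slc25a25a* sit between 13.4 and 15.4 CPM, under control pools between 18.9 and 30.6 CPM, while in *slc25a12* the EAE pools sit above.

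Uncoupling proteins comprised 4 genes, and none was called in either direction. No gene named *ucp2*, which neighbours *ucp3* in GRCz12tu, was among the 55 carriers, so these results do not cover it. *ucp1* encodes uncoupling protein 1, which in mammalian brown fat dissipates the proton gradient as heat and in fish is found in other tissues. It took 18.0% to 21.7% of carrier reads in EAE pools and 19.4% to 22.0% in control pools. Its level was 1695, 1424 and 1916 CPM in EAE pools and 1841, 1907 and 1619 CPM in control pools. EAE pools held both the lowest and the highest value, giving 1678 ± 246.4 CPM in EAE larvae and 1789 ± 150.7 CPM in control larvae (SD, n = 3 each). The log2 fold change was −0.09 ± 0.09 (SE, edgeR adjusted p = 0.523), and without EAE pool 2 it turned to 0.01. *ucp3* had 164, 152 and 160 CPM in EAE pools and 150, 178 and 167 CPM in control pools. *slc25a14*, a brain-enriched relative in mammals, had 26.0 to 29.1 CPM in EAE pools and 27.5 to 29.9 CPM in control pools. *slc25a27* had 0.705 to 1.16 CPM in EAE pools and 0.927 to 1.12 CPM in control pools, with a 95% interval of the fold from 0.676 to 1.49 at this low depth. None of the 4 was called by limma-voom, DESeq2 called none of the other 3 and gave *slc25a27* no adjusted p, and none passed an unadjusted p under 0.05.

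**Figure D3:**
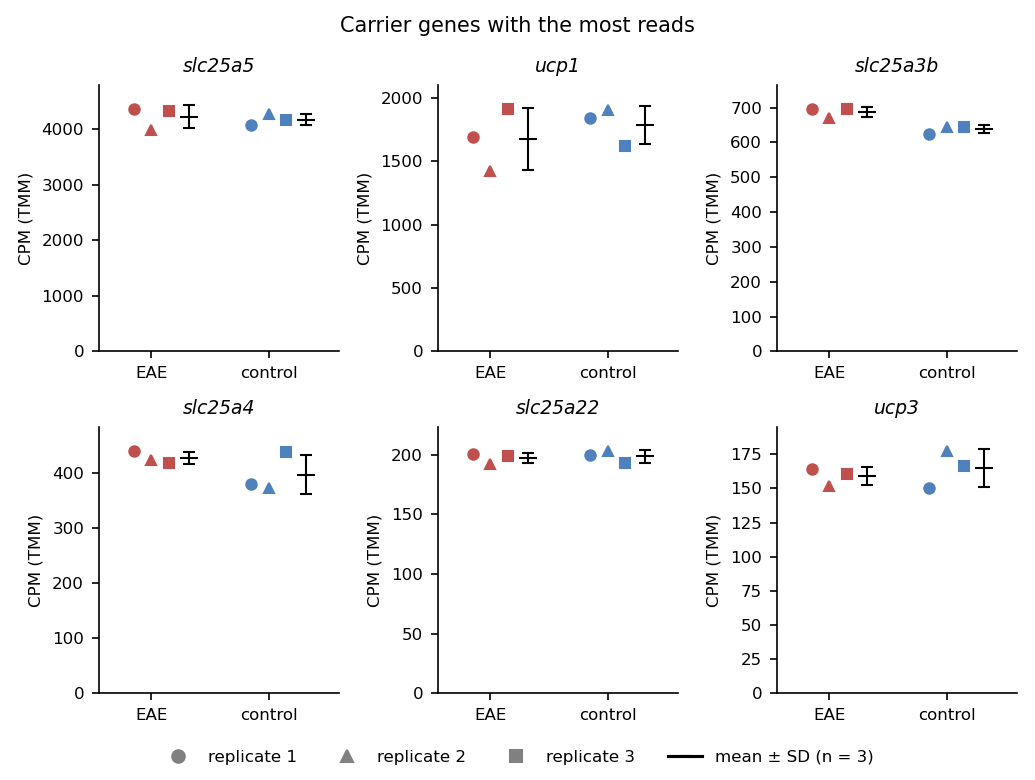
CPM of the 5 carrier genes with the most reads and of *ucp3*, with a point for each of 3 EAE pools (left) and 3 control pools (right) and bars for the mean ± SD on axes that start at 0. EAE and control pools overlap in all but *slc25a3b*, whose EAE pools lie between 671 and 697 CPM and control pools between 625 and 646 CPM. The 5 genes with the most reads took 84.5% to 85.6% of carrier reads over the 6 pools.

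The amino acid carriers comprised 11 genes, with 1 higher and none lower. *slc25a12* encodes aralar, the aspartate/glutamate carrier of excitable tissues in mammals and a step of the malate-aspartate shuttle. Its level was 72.2, 69.9 and 70.9 CPM in EAE pools, against 61.3, 58.7 and 65.5 CPM in control pools. Every EAE pool lay above every control pool. Means were 71.0 ± 1.12 CPM in EAE larvae and 61.8 ± 3.42 CPM in control larvae (SD, n = 3 each), a fold of 1.15 (log2 fold change 0.20 ± 0.05 SE, 95% interval of the fold 1.06 to 1.24, edgeR adjusted p = 0.0190). The call was lost without EAE pool 1 (edgeR adjusted p = 0.0609), without control pool 1 (0.0742) and without control pool 2 (0.0951). The gene for citrin, *slc25a13*, which is the liver form of this carrier in mammals, had only 0.856 to 1.203 CPM in EAE pools and 0.958 to 1.51 CPM in control pools. Its 95% interval of the fold ran from 0.566 to 1.22, so no difference was detectable at this depth. In GRCz12tu it overlaps *trioa*, a gene called lower in EAE larvae (log2 fold change −0.24, edgeR adjusted p = 0.00554).

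Neither gene of the glutamate carriers was called. *slc25a22* had 200.7, 192.2 and 198.8 CPM in EAE pools and 199.6, 203.3 and 192.7 CPM in control pools, with a log2 fold change of −0.01 ± 0.05 (SE) whose sign changed in 2 alternatives. *slc25a18*, which in the mammalian brain is known as an astrocyte gene, had 11.0, 13.1 and 10.7 CPM in EAE pools and 13.0, 13.4 and 15.1 CPM in control pools. Only EAE pool 2 reached into the control range. The log2 fold change was −0.25 ± 0.10 (SE, edgeR adjusted p = 0.0881), and without EAE pool 2 the gene was called lower (edgeR adjusted p = 0.0324). Leaving out any other pool gave no call, with the weakest estimate, −0.18, without control pool 3 (edgeR adjusted p = 0.316). In GRCz12tu *slc25a18* overlaps *atp6v1e1a*, which was not called (log2 fold change 0.17), so reads of these genes may not be fully separated.

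The ornithine carrier, which links the cytosolic and matrix steps of the urea cycle, is encoded by *slc25a15a* and *slc25a15b*. *slc25a15a* had 3.02 to 4.21 CPM in EAE pools and 3.06 to 3.33 CPM in control pools, and *slc25a15b* 4.75 to 6.79 CPM in EAE pools and 6.65 to 7.18 CPM in control pools. Neither was called (log2 fold changes 0.16 and −0.24). Their ratio within a pool was 0.620, 0.635 and 0.603 in EAE pools, against 0.500, 0.460 and 0.453 in control pools. Here the groups did not overlap, with a difference of the mean log2 ratio of 0.40. *slc25a15a* had only 57 to 98 reads in a pool. In GRCz12tu it overlaps *foxo1a*, which was not called, so reads of these genes may not be fully separated. Among all 11 a/b paralogue pairs of the family, 4 reached the smallest exact permutation p of 0.1 (two-sided; Benjamini-Hochberg adjusted 0.275): *slc25a15*, *slc25a25*, *slc25a36* and *slc25a51*. At 3 pools a group no pair could pass 0.05. A pair reaches the smallest p whenever its ratios do not overlap between the groups. In level rather than ratio, 32.0% of all tested genes did not overlap. Ratios of pairs outside the family were not tested, so the count of 4 has no direct background. The remaining amino acid carriers are the haem-related glycine carriers *slc25a38a* and *slc25a38b*, the branched-chain amino acid carriers *slc25a44a* and *slc25a44b*, and the basic amino acid carrier *slc25a29*. None of these 5 was called, and their log2 fold changes ran from −0.15 to 0.08. The capitalized symbols SLC25A22 and SLC25A29 are separate genes of the table that the selection did not take, and neither was called (log2 fold changes −0.05 and 0.23).

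Di- and tricarboxylate carriers comprised 6 genes, and none was called by edgeR, limma-voom or DESeq2, which gave *slc25a35* no adjusted p. At an unadjusted p under 0.05 in edgeR, 2 were higher and 0 lower, beside 14.5% and 14.3% of all tested genes. *slc25a11* encodes the oxoglutarate/malate carrier, the partner of aralar in the malate-aspartate shuttle. It had 79.4, 75.4 and 74.3 CPM in EAE pools, against 68.8, 64.5 and 72.9 CPM in control pools. All EAE pools were above the control pools, with control pool 3 close to the lowest EAE pool. The log2 fold change was 0.15 ± 0.06 (SE, edgeR adjusted p = 0.0739), and without control pool 3 the gene was called higher (log2 fold change 0.20, edgeR adjusted p = 0.0485). Leaving out any other pool gave no call, with the weakest estimate, 0.11, without control pool 2 (edgeR adjusted p = 0.282). *slc25a10*, the dicarboxylate carrier that exchanges malate or succinate for phosphate, had 15.3, 15.1 and 16.2 CPM in EAE pools and 14.0, 13.7 and 13.7 CPM in control pools. These groups also did not overlap, at a log2 fold change of 0.17 ± 0.08 (SE, edgeR adjusted p = 0.160). The citrate carrier exports citrate for cytosolic acetyl-CoA. Its gene *slc25a1a* had 11.1 to 12.2 CPM in EAE pools and 12.3 to 14.6 CPM in control pools, and *slc25a1b* had 20.9 to 24.1 CPM in EAE pools and 19.9 to 22.1 CPM in control pools. The oxodicarboxylate carrier *slc25a21* and the orphan *slc25a35* had log2 fold changes of 0.01 and −0.15.

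The carnitine carrier *slc25a20*, which exchanges acylcarnitine for free carnitine, had 32.3, 33.7 and 32.2 CPM in EAE pools and 30.4, 30.2 and 31.7 CPM in control pools. EAE pools were above control pools by a small margin (log2 fold change 0.09 ± 0.06 SE, edgeR adjusted p = 0.346). Its relative *slc25a48* had 22.8, 22.7 and 23.0 CPM in EAE pools and 26.1, 25.3 and 23.9 CPM in control pools, all EAE pools lower (log2 fold change −0.14, edgeR adjusted p = 0.181). The liver-enriched relatives *slc25a47a* and *slc25a47b* had log2 fold changes of −0.10 and −0.11 and overlapping pools. None of these 4 genes was called by edgeR, DESeq2 or limma-voom, or passed an unadjusted p under 0.05. In the GRCz12tu annotation *slc25a47a* and *slc25a29* overlap each other, so their reads may be shared.

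The cofactor and nucleotide carriers comprised 12 genes, with none higher and 1 lower. *slc25a36a* encodes a pyrimidine nucleotide carrier, which supplies the matrix with precursors for mitochondrial DNA and RNA. It had 52.9, 56.5 and 56.1 CPM in EAE pools, against 73.4, 66.4 and 61.8 CPM in control pools. The groups did not overlap, and the control pools were again the more widely spread. Means were 55.2 ± 1.96 CPM in EAE larvae and 67.2 ± 5.81 CPM in control larvae (SD, n = 3 each), a fold of 0.821 (log2 fold change −0.29 ± 0.06 SE, 95% interval of the fold 0.750 to 0.897, edgeR adjusted p = 0.00508). The call remained in every alternative that gave the gene a value, with log2 fold changes of −0.34 to −0.22 when single pools were left out.

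*slc25a36b* had 38.2, 39.4 and 39.5 CPM in EAE pools and 41.9, 42.3 and 37.9 CPM in control pools, which overlapped (log2 fold change −0.06 ± 0.06 SE, edgeR adjusted p = 0.552). The ratio of *slc25a36a* to *slc25a36b* was 1.38, 1.43 and 1.42 in EAE pools and 1.75, 1.57 and 1.63 in control pools, with no overlap and a difference of the mean log2 ratio of −0.22. The third pyrimidine nucleotide carrier, *slc25a33*, had 56.0 to 59.7 CPM in EAE pools and 58.5 to 62.2 CPM in control pools and was not called.

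*slc25a26* encodes the carrier of S-adenosylmethionine, the methyl donor for mitochondrial RNA and protein. It had 16.1, 15.1 and 15.7 CPM in EAE pools, against 12.1, 13.4 and 14.4 CPM in control pools. All EAE pools were above the control pools, but the log2 fold change of 0.23 ± 0.08 (SE) missed the threshold (edgeR adjusted p = 0.0697). The NAD carrier genes had log2 fold changes of −0.32 ± 0.18 (SE) for *slc25a51a*, at 1.72 to 2.23 CPM in EAE pools and 2.38 to 2.72 CPM in control pools, and 0.10 for *slc25a51b*. Further cofactor carriers were the folate/FAD carriers *slc25a32a* and *slc25a32b*, the coenzyme A-related carriers *slc25a16* and *slc25a42*, and the peroxisomal *slc25a17*. None of these 5 was called, and their log2 fold changes ran from −0.11 to 0.16.

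The mitoferrins bring iron into the matrix for haem and iron-sulphur clusters. *slc25a37* (mitoferrin 1), required for haem synthesis in erythroid cells, had the highest log2 fold change of the family, 0.48 ± 0.27 (SE). It had 1.12, 0.940 and 1.36 CPM in EAE pools and 0.756, 0.811 and 0.874 CPM in control pools. Although the groups did not overlap, each value rests on few reads and the 95% interval of the fold ran from 0.945 to 2.05 (edgeR adjusted p = 0.252). *slc25a28* (mitoferrin 2), used outside the erythroid lineage, had 113, 101 and 119 CPM in EAE pools and 109, 109 and 106 CPM in control pools. The glutathione carriers *slc25a39* and *slc25a40* had log2 fold changes of −0.12 and −0.08. None of the 4 genes was called by edgeR, limma-voom or DESeq2, which gave *slc25a37* no adjusted p, and none passed an unadjusted p under 0.05.

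In the outer membrane, *mtch2*, whose human protein inserts tail-anchored proteins there, had 75.9, 72.2 and 72.2 CPM in EAE pools and 65.8, 70.2 and 66.4 CPM in control pools. All EAE pools were above the control pools (log2 fold change 0.12 ± 0.05 SE, edgeR adjusted p = 0.116). *slc25a46*, linked to mitochondrial shape and to neuropathy in humans, had 11.7, 9.80 and 10.7 CPM in EAE pools and 11.6, 13.0 and 12.4 CPM in control pools (log2 fold change −0.20, edgeR adjusted p = 0.162). For *slc25a46*, EAE pool 1 and control pool 1 were nearly equal. Neither gene was called, although at an unadjusted p under 0.05 in edgeR *mtch2* was higher and *slc25a46* lower. *slc25a43*, whose substrate is not established, had 32.9, 31.8 and 31.0 CPM in EAE pools and 34.5, 37.9 and 36.8 CPM in control pools. It was called lower at a fold of 0.877 (log2 fold change −0.19 ± 0.06 SE, edgeR adjusted p = 0.0460), close to the threshold. The call was lost in 10 of 16 alternatives, among them each of the 6 that left out a pool (edgeR adjusted p from 0.0523 to 0.158).

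Other genes of the carriers' routes were counted in lists by route. Of all tested genes, 7.22% were called higher and 6.95% lower. In the TIM22 import route and the outer membrane pore through which carriers arrive, 2 of 16 tested genes were higher and none lower. These were *timm8b*, a small chaperone of the intermembrane space (log2 fold change 0.30 ± 0.08 SE, edgeR adjusted p = 0.0156), and *agk*, a lipid kinase that is also a TIM22 subunit in humans (0.27 ± 0.07 SE, edgeR adjusted p = 0.0225). The 16 included *tomm* genes of the outer membrane pore, but no gene named *timm22* or *timm29*. Of the 16, 15 had a log2 fold change above 0, with a median of 0.13, beside 50.2% of all genes above 0. Their summed level was 398.2 to 404.9 CPM in EAE pools and 366.2 to 366.6 CPM in control pools. The list had 0 calls without control pool 1 and by DESeq2, and 1 without control pool 2.

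Among the enzymes that activate acyl groups, join them to carnitine or oxidize them, 3 of 18 were higher and 1 lower. Of all tested genes, these shares were 7.22% and 6.95%. Their median log2 fold change was 0.12. Higher were *acadvl*, very-long-chain acyl-CoA dehydrogenase (0.22, edgeR adjusted p = 0.00586), *hadh*, hydroxyacyl-CoA dehydrogenase (0.23, edgeR adjusted p = 0.0181), and *cpt1ab*, carnitine palmitoyltransferase 1 of the outer membrane (0.26, edgeR adjusted p = 0.0464). *acsl1a*, an acyl-CoA synthetase, was lower (log2 fold change −0.19, edgeR adjusted p = 0.0260). The list had 1 higher and no lower call without control pool 1, and 2 higher and no lower calls without EAE pool 1, EAE pool 2 or control pool 2 and by DESeq2. Without control pool 3 it had 4 higher and no lower calls, so that the lower call was present only without EAE pool 3 among the fits that left out a pool.

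In citrate and pyruvate handling 5 of 24 were higher and none lower, beside 7.22% and 6.95% of all tested genes. The median log2 fold change was 0.05. Among the genes called were *aclyb* (0.51, edgeR adjusted p = 0.00350) and *aclya* (0.17, edgeR adjusted p = 0.0353), ATP-citrate lyases that split exported citrate, and *dlat* (0.17, edgeR adjusted p = 0.0288), a subunit of pyruvate dehydrogenase. Without a single pool this list had between 1 and 4 higher calls: 1 without control pool 1 or control pool 2, 2 without EAE pool 1 or EAE pool 2, and 4 without either of the other two pools. A lower call appeared without control pool 1 alone, and DESeq2 called 3 higher.

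Regulators of mitochondrial biogenesis had 1 of 13 higher, the coactivator *pprc1* (log2 fold change 0.32, edgeR adjusted p = 0.00690), and 1 lower, the nuclear receptor *esrrga* (−0.28, edgeR adjusted p = 0.00316). These counts lay near the all-gene shares of 7.22% called higher and 6.95% called lower. The remaining lists had no call by edgeR, limma-voom or DESeq2, which gave an adjusted p to 6 of the 7 urea cycle genes and 15 of the 17 other gates. Enzymes of the malate-aspartate shuttle were listed together with glycerol phosphate dehydrogenases, which belong to a different shuttle. This joint list had 0 of 11 called, with 2 higher and 0 lower at an unadjusted p under 0.05. Its median log2 fold change was 0.04. Urea cycle and ornithine genes had 0 of 7 called, with 2 higher and 0 lower unadjusted. Genes of haem synthesis, its cytosolic steps included, and of iron-sulphur clusters had 0 of 18 called, with 2 higher and 0 lower unadjusted. When single pools were left out, each of the last 2 lists had up to 1 higher call. The urea list had it without EAE pool 2 or control pool 3, and the haem list without EAE pool 2 or EAE pool 3. In edgeR without the low-count filter each of these 2 lists also had 1 higher call, as did the haem list with upper-quartile scaling. Other mitochondrial gates, such as the pyruvate carrier and the porins, had 0 of 17 called, with 1 higher and 1 lower unadjusted. Of all tested genes, 14.5% were higher and 14.3% lower at an unadjusted p under 0.05.

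**Figure D4:**
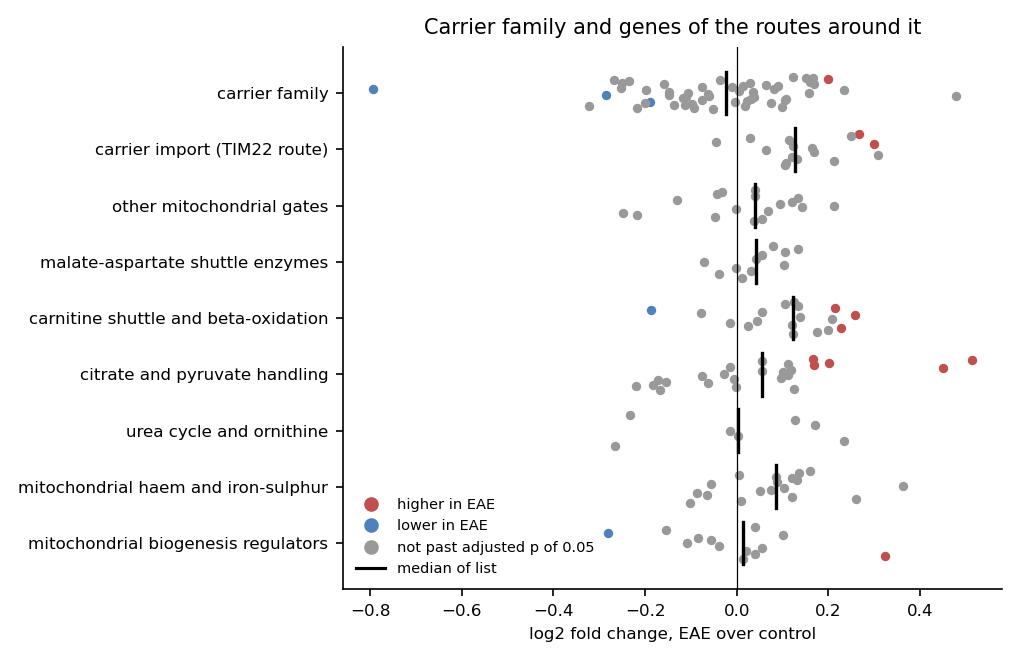
Log2 fold change (EAE over control, horizontal axis) of each tested gene of the carrier family and of 8 lists of genes around it (rows), with the list median as a vertical bar and called genes in red (higher in EAE) or blue (lower in EAE). The carrier family centres on −0.02. The carrier import list, which holds genes of the TIM22 route and of the outer membrane pore, centres on 0.13. The malate-aspartate row also holds glycerol phosphate dehydrogenases, and the haem row also holds enzymes of cytosolic steps.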

How the data were processed

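RNA-Seq was analysed from 6 pools of whole larvae, 3 EAE and 3 control. The authors aligned single-end reads with STAR to GRCz10, per the submitters' processing notes, and deposited the unnormalized read counts of every gene symbol, 1 column per pool. The counting program, the annotation release, the use of strand and the rule for multiply aligned reads are not given in the sources used here. The table had 30714 rows. A nameless row, with 1.49% to 1.57% of the counts, was not used, and 17 names had been turned into dates. The files give no coordinates. Neighbouring genes were read from RefSeq (GRCz12tu), in which all 55 carriers matched.

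Counts were analysed with edgeR 4.0.16 in R 4.3.3: filterByExpr, TMM factors (0.986 to 1.02), quasi-likelihood F test by group, two-sided, and Benjamini-Hochberg adjustment over 21617 genes. The biological coefficient of variation was 0.0525. SE was the log2 fold change divided by the square root of F, and 95% intervals used 18.29 degrees of freedom. No pools were merged, since pools of a group differed by more than counting noise (chi-square over its degrees of freedom 3.56 to 5.07). Ratios of paralogue reads were compared by exact permutation tests. DESeq2 1.42.0 and limma 3.58.1 served as alternatives, beside other scaling, filters, thresholds, a replicate block, summed paralogues and each pool left out.

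Named carriers were all that were called, those with the smallest p up to at least 20, the 5 with the most reads, the highest and lowest fold change, paralogues of called genes and any left out by the filter. Up to 4 called genes per list were named. A few genes are counted but not reported by name here. Other carriers are given by class, chosen after values were seen. The carriers, lists and classes were chosen with earlier results of these data known.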

Additional observations from a re-analysis of the deposited data

How the results depend on the processing

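Direction and call of *slc25a25a* and *slc25a36a* were the same under each alternative that gave them a value; summing paralogues gave none for single members of a pair. The carriers called higher numbered 1, and 0 to 2 when single pools were left out, 0 at an adjusted p under 0.01 and 3 under 0.1. Those called lower numbered 3, and 2 to 3 when single pools were left out. Leaving out pools moved the median log2 fold change of the carriers between −0.046, without control pool 1, and −0.018, without control pool 3. Among all 21617 tested genes 3063 were called, and 1260 under 0.01. DESeq2 called 1846 of the 17003 genes to which it gave an adjusted p. When single pools were left out, the genes called numbered between 1641, without EAE pool 1, and 2996, without EAE pool 3. The lists of surrounding genes, for which the alternatives were chosen after seeing the data, held 13 calls, against 7 by DESeq2, 4 under 0.01 and 21 under 0.1, and between 5, without control pool 1, and 14, without EAE pool 3. Cause was not tested for any of these. Signs were followed across the alternatives only for the 26 tested carriers chosen by the naming rule. Of these, 3 changed sign in some alternative (*slc25a5*, *slc25a22* and *ucp1*), none of them called. The signs of other carriers, some with estimates near 0, were not followed.

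Pools share replicate numbers across groups, but same-numbered pools did not deviate together (correlations of −0.0086, −0.034 and −0.093), so the numbers were not taken as pairs. With the replicate block 2336 genes, 1 higher and 2 lower carriers and 7 list genes were called. Low read numbers limited *slc25a13*, *slc25a27*, *slc25a35*, *slc25a37* and *slc25a51a*, to which DESeq2 gave no adjusted p, and left *slc25a24l* untested.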
